A study of Mus musculus with 6 samples.

Results

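The Nr4a family of nuclear receptors, Nr4a1, Nr4a2 and Nr4a3, was followed in the anterior cingulate cortex, which lies along the midline of the frontal brain. The members were the rows of the deposited count table that carry these symbols, 3 of 45777 genes, and all 3 passed the filter on low counts. The stress group was 3 libraries from BALB/c mice, an inbred strain, subjected to social defeat stress for 5 days (labelled smSDS), in which an aggressive mouse is allowed to defeat the test mouse again and again. The non-stress group was 3 libraries of the same strain and region without defeat. Whether each library is 1 animal is not stated, so errors measure the spread between libraries, which may be technical. The age and sex of the mice and the time between the last defeat and dissection were not stated in the labels used here. The family was chosen by the fold change and p-value of Nr4a1 in the stress comparison, where it stood among the lower genes, so the values of the 3 genes in that comparison are a description and carry no test.

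Nr4a receptors are transcription factors whose ligand pocket is filled by their own side chains, so their activity follows mainly from how much of them is made. In neurons Nr4a1 (also called Nur77) and Nr4a3 (Nor1) are immediate early genes, transcribed soon after calcium or cyclic AMP signals reach the nucleus. Nr4a2 (Nurr1) is also inducible, but is held at a steady level in some neurons, such as midbrain dopamine neurons and cells of the claustrum and deepest cortical layer. Calcium and cyclic AMP act on these genes through CREB, which binds the cyclic AMP response element (CRE), and the proteins in turn bind an element called NBRE, alone or, for Nr4a1 and Nr4a2, with a retinoid X receptor.

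The sequences just upstream of the 3 genes are shown because the CRE recurs in each. They are the 250 bases before the transcription start in RefSeq's GRCm38.p6, the reference sequence of another strain, read 5′ to 3′ along the gene's strand. Capitals mark the CRE core TGACG or its reverse complement CGTCA.
Nr4a1: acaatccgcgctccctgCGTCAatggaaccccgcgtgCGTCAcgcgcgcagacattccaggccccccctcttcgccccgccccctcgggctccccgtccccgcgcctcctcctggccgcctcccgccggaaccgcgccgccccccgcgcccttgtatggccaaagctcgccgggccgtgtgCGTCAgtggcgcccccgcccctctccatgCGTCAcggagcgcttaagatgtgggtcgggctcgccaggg
Nr4a2: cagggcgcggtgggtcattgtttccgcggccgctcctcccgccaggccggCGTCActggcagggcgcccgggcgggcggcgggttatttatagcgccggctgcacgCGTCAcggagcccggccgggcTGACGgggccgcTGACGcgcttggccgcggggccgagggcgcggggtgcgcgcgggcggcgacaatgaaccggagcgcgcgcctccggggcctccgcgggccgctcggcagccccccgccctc
Nr4a3: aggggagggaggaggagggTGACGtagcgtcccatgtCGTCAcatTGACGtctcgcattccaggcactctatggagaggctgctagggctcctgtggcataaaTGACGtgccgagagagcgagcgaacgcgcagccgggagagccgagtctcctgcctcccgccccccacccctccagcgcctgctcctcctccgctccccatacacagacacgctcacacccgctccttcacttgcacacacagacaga
The windows lie at chr15:101266596-101266845 on the plus strand for Nr4a1, chr2:57124004-57124253 on the minus strand for Nr4a2 and chr4:48045055-48045304 on the plus strand for Nr4a3. For Nr4a1 and Nr4a3 the start used lies inside the annotated span of the gene, which begins farther upstream. Each window held 4 cores. Of 32851 windows of the same length in the RefSeq table, searched on both strands, 17.8% held at least 1 core and 0.137%, or 45 windows, held at least 4. Bases G and C made up 74.4%, 80.0% and 63.6% of the Nr4a1, Nr4a2 and Nr4a3 windows. The windows also differed from each other. In Nr4a1 every core stood inside the longer variant TGACGCA (its reverse complement TGCGTCA on the gene's strand), at 235, 215, 71 and 42 bases before the start. That variant was in 1.75% of the windows, and Nr4a1 held the single window with 3 or more. The Nr4a2 and Nr4a3 windows held 0 of these variants. The full palindrome TGACGTCA, found in 1.55% of windows, the NBRE (AAAGGTCA, in 1.34%) and the CArG box of serum response factor (in 1.47%) were found in 0 of the 3. Among 26 other immediate early genes with a window in the table, 17 held at least 1 core, 2 held at least 3 and 0 held 4. These letter matches describe the reference sequence and are not measurements of binding.

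**Figure D1:**
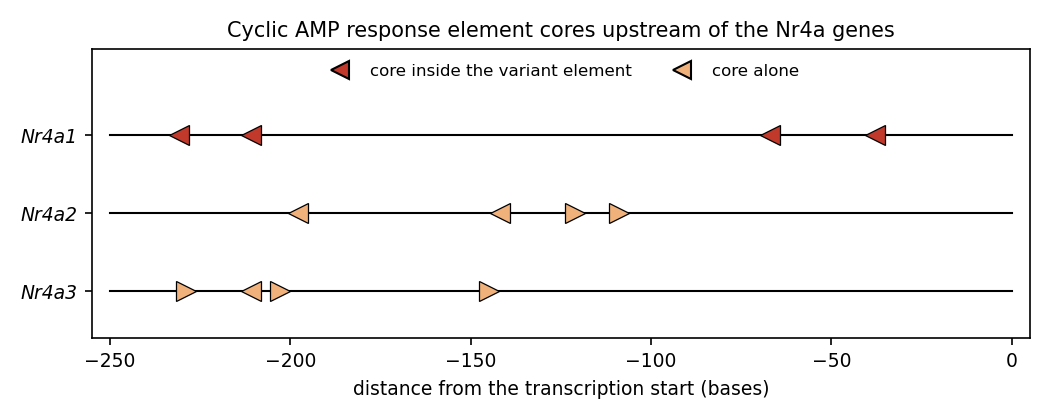
Positions of CRE cores (triangles, pointing right for the plus orientation along the gene and left for minus) in the 250 bases before the start of each Nr4a gene; the x axis is distance from the start in bases. Each gene has 4 cores, and all 4 of Nr4a1 lie inside the variant element.

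The libraries held 41623899 to 47212982 counts. They did not separate by group alone: on principal component 1, with 34.5% of the variance, non-stress 2 and 3 lay at 37.3 and 27.6, while non-stress 1 at -11.9 lay near the stress libraries (-20.5 to -14.8). Members are therefore given library by library. Markers of cortical excitatory neurons were all detected, with Slc17a7, the vesicular glutamate transporter gene, at 1131 to 1156 CPM (each count divided by its library total and scaled) in stress and 1122 to 1288 CPM in non-stress. Across all 19227 genes tested, edgeR's quasi-likelihood test called 1 gene at a Benjamini-Hochberg adjusted p under 0.05 (0.0052%), and it is not a member of the family or of any list below. Without non-stress 1 it called 756. DESeq2 called 107 genes, 62 lower and 45 higher, or 0.999% of the 10707 for which it gave an adjusted p. It gave none for the other 8520, so those could not be called by it.

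Nr4a1, the most abundant member, was lower in every stress library than in any non-stress library. It had 1443, 1552 and 1521 counts in stress 1, 2 and 3, against 2191, 2910 and 2087 in non-stress 1, 2 and 3. In CPM these were 34.7, 35.7 and 33.9 in stress, against 50.8, 61.6 and 49.7 in non-stress. The stress libraries lay close together, non-stress 2 was the highest, and non-stress 1 and 3 were nearly level. The means were 34.8 ± 0.918 CPM in stress and 54.1 ± 6.58 CPM in non-stress (SD, n = 3 each). The fitted log2 fold change was -0.64 (SE 0.08), which is 1.56-fold lower in stress. Each of the 9 ratios of a stress library to a non-stress library lay between 0.550 and 0.718. Of the 3 members, 1 had groups that did not overlap with stress lower, a pattern seen in 9.43% of all genes tested. In bulk tissue, fewer cells that express the gene and less RNA per cell cannot be told apart.

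Nr4a2 overlapped between the groups. It had 588, 714 and 807 counts in the stress libraries (14.1, 16.4 and 18.0 CPM) and 756, 623 and 514 in the non-stress libraries (17.5, 13.2 and 12.2 CPM). The highest and lowest libraries were stress 3 and non-stress 3, and non-stress 1 was the second highest. The means were 16.2 ± 1.94 CPM in stress and 14.3 ± 2.82 CPM in non-stress, with a log2 fold change of 0.18 (SE 0.14). Without non-stress 1 the groups no longer overlapped, and the log2 fold change was 0.35 (SE 0.11), a value that rests on that library.

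Nr4a3, the least abundant member, differed little between libraries. It had 242, 269 and 282 counts in stress (5.81, 6.19 and 6.28 CPM) and 283, 258 and 291 in non-stress (6.57, 5.46 and 6.93 CPM). The stress libraries lay inside the range of the non-stress libraries. The means were 6.10 ± 0.249 CPM in stress and 6.32 ± 0.764 CPM in non-stress, with a log2 fold change of -0.05 (SE 0.12). Counting error alone gave an exact Poisson 95% interval of 5.10 to 6.59 CPM in stress 1, as wide as the spread between libraries.

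**Figure D2:**
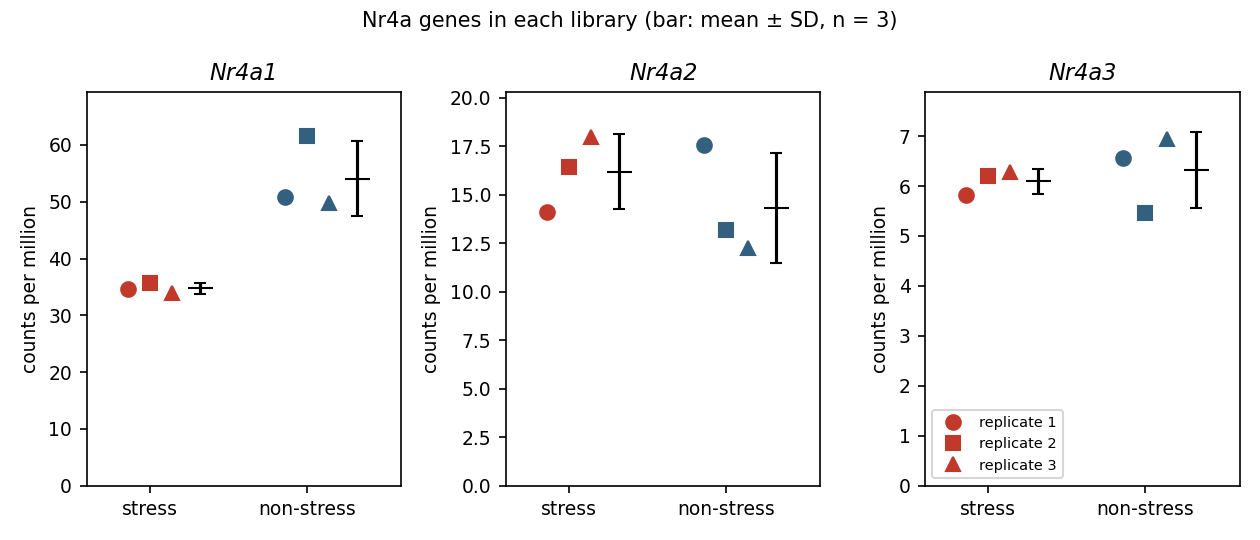
CPM of Nr4a1, Nr4a2 and Nr4a3 (y axis, from 0, own scale per gene) in the 3 stress and 3 non-stress libraries, with the mean and SD beside the points. Nr4a1 lies at 33.9 to 35.7 CPM in stress and 49.7 to 61.6 CPM in non-stress, while Nr4a2 and Nr4a3 overlap.

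The order of the members was the same in all 6 libraries once levels were divided by transcript length. On this scale (CPM per kb of the principal GENCODE transcript, of 2553, 3568 and 5720 nucleotides for Nr4a1, Nr4a2 and Nr4a3), Nr4a1 stood at 13.6 ± 0.360 in stress and 21.2 ± 2.58 in non-stress. Nr4a2 stood at 4.53 ± 0.544 and 4.02 ± 0.791 in stress and non-stress, and Nr4a3 at 1.07 ± 0.0434 and 1.11 ± 0.134. The ranges of the 3 members over the 6 libraries did not overlap. The summed level of the family was 18.6, 19.7 and 19.4 in stress and 26.0, 28.8 and 24.1 in non-stress. The composition of that sum also differed: Nr4a1 made up 73.2%, 71.1% and 68.4% of it in stress, against 76.7%, 83.8% and 80.7% in non-stress. Nr4a1 per length was 3.43, 3.04 and 2.63 times Nr4a2 in the stress libraries and 4.05, 6.53 and 5.67 times Nr4a2 in the non-stress libraries. Of the non-stress libraries, the first came closest to stress in this ratio, and it also had the highest Nr4a2 of the 3. The ratio of Nr4a2 to Nr4a3 overlapped, at 3.90 to 4.59 in stress and 2.83 to 4.28 in non-stress.

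**Figure D3:**
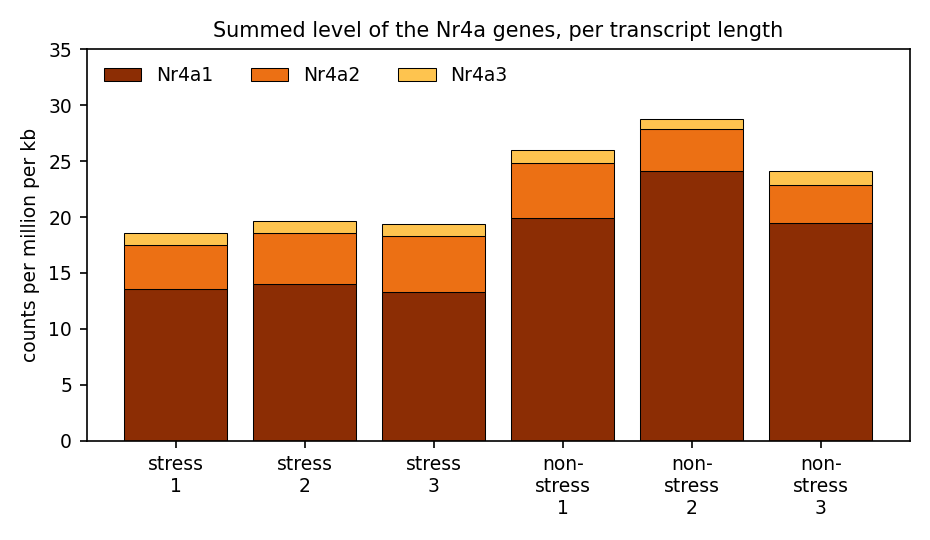
Summed level of the 3 Nr4a genes per library (y axis, CPM per kb of transcript), with bars divided by gene and the stress libraries at the left. The sums are 18.6 to 19.7 in stress and 24.1 to 28.8 in non-stress. The mean Nr4a1 part is lower in stress (13.6 against 21.2). The mean Nr4a2 part is slightly higher (4.53 against 4.02) and the Nr4a3 part nearly level (1.07 against 1.11).

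The Nr4a1 transcript also differed from its relatives in base composition. Its GC content was 57.0%, against 47.9% for Nr4a2 and 48.4% for Nr4a3. With a smooth trend on GC content and transcript length removed from each library, the log2 fold change of Nr4a1 was -0.54 (SE 0.06), that of Nr4a2 was 0.18 and that of Nr4a3 was -0.04.

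Tested genes around Nr4a1 had smaller fold changes than it had. The family was chosen by the fold change of Nr4a1, so this contrast was largely set by that choice. Of the 19227 genes tested, 280 had a more negative log2 fold change than Nr4a1. Nr4a1 (chromosome 15, 101253902 to 101274795, GRCm38) had 6 tested genes within 100 kb, with log2 fold changes from -0.34 to 0.02 and 0 at an unadjusted p under 0.05 by edgeR. The nearest, the autophagy gene Atg101 at 9506 bases, had a log2 fold change of -0.01 (SE 0.06), and Grasp, which encodes a scaffold of glutamate receptor trafficking, had one of -0.04 (SE 0.07). Krt80, a keratin gene, had -0.34 (SE 0.18), and Acvr1b, the noncoding A330009N23Rik and Gm35853 lay between -0.11 and 0.02. Smim41, 18368 bases away and too low to be tested, had 9, 12 and 12 counts in stress and 0, 2 and 2 in non-stress. Nr4a2 (chromosome 2, 57106830 to 57124003) had 1 tested neighbour, the noncoding BB557941 at 3474 bases, with 25, 20 and 24 counts in stress and 8, 19 and 14 in non-stress (log2 fold change 0.78, SE 0.35). LOC105244150 overlaps Nr4a2 and had 1 to 7 counts per library. How reads of the overlap were assigned was not stated. Nr4a3 (chromosome 4, 48045078 to 48086447) had the membrane fusion gene Stx17 beside it, with a log2 fold change of -0.04 (SE 0.08), and the noncoding Gm46853, with 0.25 (SE 0.21). Most of the other neighbours listed within 100 kb had too few counts to be tested.

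Within the nuclear receptor superfamily, Nr4a1 had the most negative log2 fold change of the 36 genes tested, and was the 8th most abundant per length. Its place by fold change rests on the value by which the family was chosen. Esrrb, the least abundant per length, had the next most negative value, at -0.60 (SE 0.39). Nr4a2 ranked 14th and Nr4a3 28th in level. Thra, a thyroid hormone receptor gene and the most abundant, had a log2 fold change of -0.07 (SE 0.05), and Nr3c1, the glucocorticoid receptor gene, had one of -0.06 (SE 0.05). Of the 46 other receptors, 33 passed the filter on low counts, and 5 had 0 counts in every library (Nr1i2, Hnf4a, Hnf4g, Nr5a2 and Nr0b1). Of the 33, edgeR called 0 at an adjusted p under 0.05. At an unadjusted p under 0.05, 4 were lower and 1 was higher in stress, against 6.27% and 5.8% of all genes tested. DESeq2 called 0 of the 21 to which it gave an adjusted p, and limma-voom called 0. Their median log2 fold change was -0.07, against -0.00053 over all genes tested. The smallest p-values belonged to Esrra, a regulator of energy metabolism, at 25.1, 27.4 and 28.7 CPM in stress and 35.4, 37.0 and 28.7 CPM in non-stress (log2 fold change -0.32, edgeR adjusted p = 0.345), to Rxrg, and to Nr6a1, an orphan receptor, with a log2 fold change of -0.38 (edgeR adjusted p = 0.386).

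**Figure D4:**
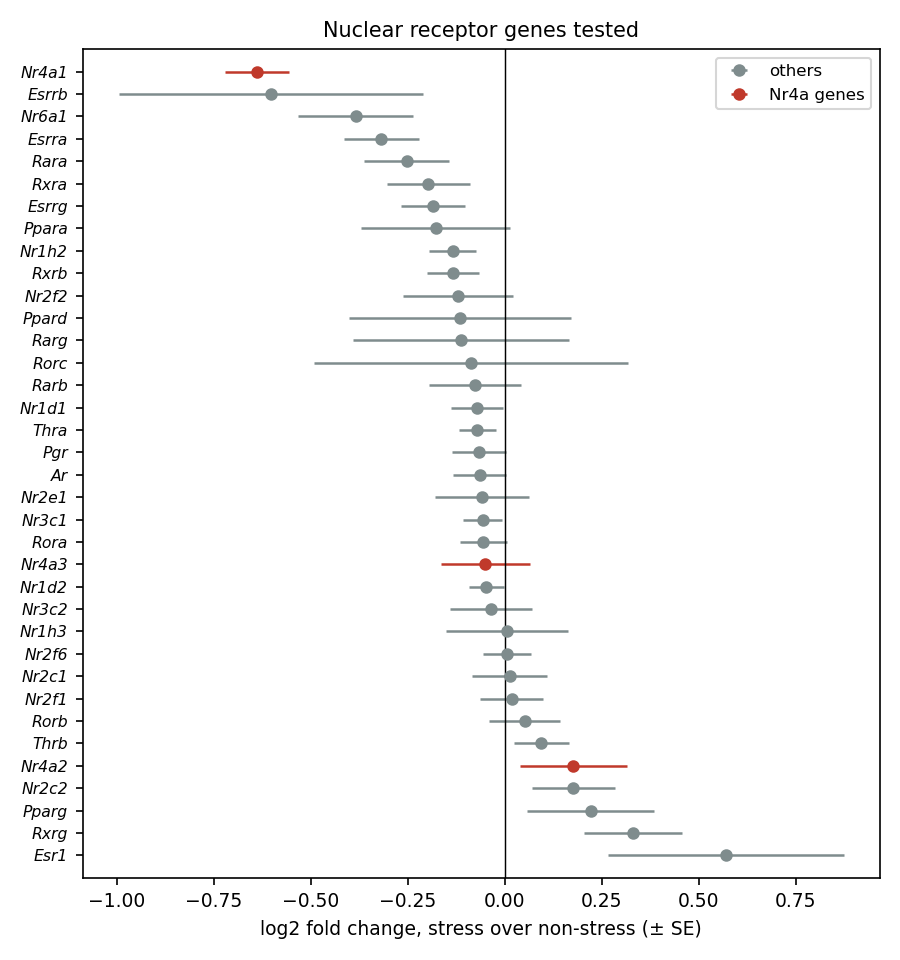
Log2 fold change, stress over non-stress, of the 36 nuclear receptor genes tested (x axis), with SE as bars, ordered from most negative at the top. Nr4a1 is at -0.64, Nr4a3 at -0.05 and Nr4a2 at 0.18.

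The retinoid X receptors, partners of Nr4a1 and Nr4a2, differed in the sign of their fold changes, and edgeR called 0 of them. Rxrb, the most abundant of them per length, had 85.7, 91.2 and 93.9 CPM in stress and 94.6, 108.8 and 93.4 CPM in non-stress (log2 fold change -0.13, SE 0.07), so the groups overlapped. Rxra had 11.8 to 13.4 CPM in stress and 12.6 to 16.4 CPM in non-stress, which also overlapped. Rxrg had 4.90, 5.25 and 5.30 CPM in stress and 4.64, 4.003 and 3.64 CPM in non-stress, with each stress library above each non-stress one (log2 fold change 0.33, SE 0.13, edgeR adjusted p = 0.382). In the list of 17 partners and coregulators, all were tested. EdgeR called 0, with 2 lower and 1 higher at an unadjusted p under 0.05, against 6.27% and 5.8% of all genes tested. DESeq2 called 0 of the 15 to which it gave an adjusted p, and limma-voom called 0. Trim28, a coactivator of these receptors, was among the lower ones, with a log2 fold change of -0.15 (edgeR adjusted p = 0.386). The list's median was -0.08.

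The series title names calcium and cyclic AMP signalling, the route that induces Nr4a genes. Of 35 genes on that route, from channels and kinases to CREB, its coactivators, MEF2 factors and class IIa histone deacetylases, edgeR called 0. At an unadjusted p under 0.05, 5 were lower and 2 higher in stress, against 6.27% and 5.8% of all genes tested. DESeq2 called 1 of the 33 to which it gave an adjusted p, against 0.579% of all such genes called lower, and limma-voom called 0. The gene called was Camkk1, a calcium-dependent kinase gene, at 109, 109 and 113 CPM in stress and 123, 148 and 126 CPM in non-stress (log2 fold change -0.26, DESeq2 adjusted p = 0.0474, edgeR adjusted p = 0.344). Mrtfa, a coactivator of serum response factor, had a log2 fold change of -0.24 (SE 0.08). Rps6ka3, which encodes the CREB kinase RSK2, had 20.0, 17.8 and 18.4 CPM in stress and 17.0, 7.63 and 8.77 CPM in non-stress, with non-stress 1 near the stress libraries. Its log2 fold change was 0.75 (SE 0.25), and 1.19 without non-stress 1. The median of the list was 0.0021, or 0.05 without non-stress 1, when edgeR called 4 members, against 3.85% of all genes.

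Nr4a1 was one of many immediate early genes with lower values in stress. Of 35 other immediate early genes 34 were tested, and edgeR called 0. At an unadjusted p under 0.05, 14 were lower and 1 was higher in stress, against 6.27% and 5.8% of all genes, and the groups did not overlap in 13 lower and 2 higher genes, against 9.43% and 8.43% of all genes. DESeq2 called 5 of the 22 to which it gave an adjusted p, all lower, against 0.579% of all such genes called lower and 0.42% called higher, while limma-voom called 0. The median log2 fold change was -0.16 (-0.17 without non-stress 1, when 15 were lower and 2 higher against 9.61% and 9.84% of all genes). This list and its direction were known beforehand from these libraries, so its count is not independent evidence. Among the 37 immediate early genes that include the family, 1 other, the low-count Maff, had a fitted log2 fold change more negative than Nr4a1. The place of Nr4a1 there also rests on the value by which the family was chosen.

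Single genes show how Nr4a1 compared. Junb, an AP-1 subunit gene, had 89.0, 89.1 and 88.4 CPM in stress and 108, 109 and 105 CPM in non-stress (log2 fold change -0.27, SE 0.04, edgeR adjusted p = 0.155, DESeq2 adjusted p = 2.98e-05). Arc, which acts at synapses, had 141, 148 and 122 CPM in stress and 184, 181 and 165 CPM in non-stress (-0.37, SE 0.07, edgeR adjusted p = 0.309, DESeq2 adjusted p = 0.000739). Dusp6, a phosphatase that restrains ERK, had a log2 fold change of -0.22 (SE 0.05, edgeR adjusted p = 0.344, DESeq2 adjusted p = 0.0124). In Fos and Egr1, transcription factor genes used as activity markers, the highest library was non-stress 1, at 32.8 CPM for Fos and 308 CPM for Egr1. The other non-stress libraries had 26.9 and 27.1 CPM of Fos, and 267 and 270 CPM of Egr1, above the highest stress libraries at 23.6 and 246 CPM. Nr4a1 had its highest library in non-stress 2, as did 9 of the 34 other immediate early genes tested, Junb among them. Non-stress 1 was the highest in 12. The median of the other immediate early genes, relative to each gene's mean over the 6 libraries, was -0.09, -0.08 and -0.07 (log2) in stress 1, 2 and 3 and 0.11, 0.08 and 0.0028 in non-stress 1, 2 and 3. For Nr4a1 the same quantity was -0.32, -0.28 and -0.35 in stress and 0.24, 0.52 and 0.19 in non-stress.

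**Figure D5:**
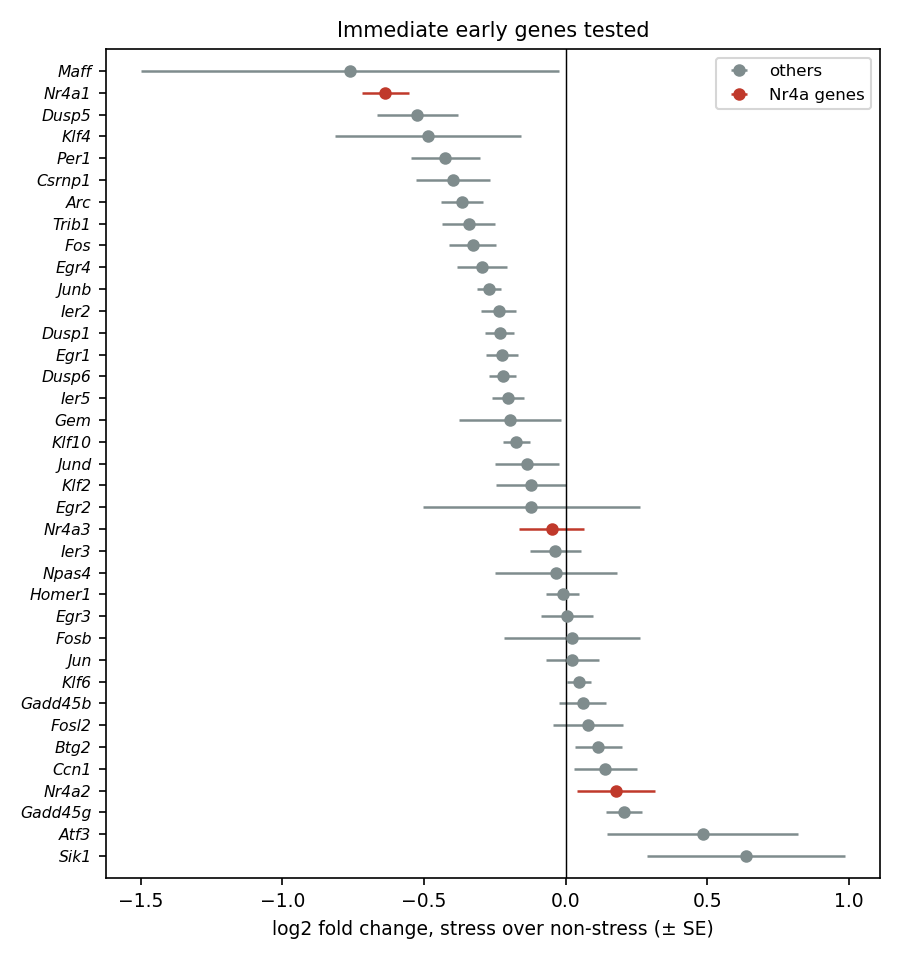
Log2 fold change, stress over non-stress, of the 3 Nr4a genes and 34 other immediate early genes tested (x axis), with SE as bars, ordered from most negative at the top. Nr4a1 is near the top at -0.64, while Nr4a3 and Nr4a2 lie among genes near or above 0.

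Genes reported in other tissues and settings as Nr4a targets were not called with all libraries. The list of these genes was chosen with earlier results of these libraries known, so its counts are not independent evidence. Of 26 such genes 22 were tested, and edgeR and limma-voom called 0 of these, as did DESeq2 of the 12 to which it gave an adjusted p. The log2 fold change was positive in 15 and negative in 7. At an unadjusted p under 0.05 by edgeR, 7 were higher and 1 was lower in stress, against 5.8% and 6.27% of all genes tested, and the median log2 fold change was 0.12. Of the 7, 4 encode chaperones or folding factors of the endoplasmic reticulum (Hspa5, Hsp90b1, Pdia6 and Sdf2l1), with log2 fold changes of 0.12 to 0.18. The list also holds Creld2, another gene of that compartment, which is not among these 4. Without non-stress 1, 9 were higher and 2 lower, against 9.84% and 9.61% of all genes, and edgeR called 3, all higher, against 3.85% of all genes called in either direction. The smallest p-value was that of Pdia6, a protein-folding enzyme of the endoplasmic reticulum, at 276, 267 and 280 CPM in stress and 258, 241 and 229 CPM in non-stress (log2 fold change 0.18, edgeR adjusted p = 0.344). Pomc, the precursor of pituitary and hypothalamic peptides, had 3.96, 3.41 and 2.63 CPM in stress and 2.51, 1.42 and 1.10 CPM in non-stress. It is also a pituitary marker, and the other 7 pituitary markers summed to 9.03, 10.7 and 1.16 CPM in stress and 0.673, 0.212 and 0.167 CPM in non-stress, with Fshb at 0 counts in every library. Most of that sum in stress 1 and 2 was Gh, the growth hormone gene, which had 337, 400 and 30 counts in stress and 9, 6 and 0 in non-stress. Their part in the Pomc values was not tested. Spp1, which encodes osteopontin, had the opposite direction, with a log2 fold change of -0.46 (SE 0.14, edgeR adjusted p = 0.344).

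Markers of the cells and neighbouring tissue that express Nr4a genes were summed in each library. The striatum expresses Nr4a1, and 10 striatum markers summed to 321 to 329 CPM in stress and 316 to 340.0 CPM in non-stress, with 0 of them at 0 counts in any library. A large part of that sum was the single gene Ppp1r1b, at 138, 144 and 137 CPM in stress and 131, 165 and 158 CPM in non-stress. Drd1, the D1 dopamine receptor gene, stood at 13.7 to 15.4 CPM in stress and 13.4 to 15.4 CPM in non-stress, and Drd2 at 0.602 ± 0.134 and 1.08 ± 0.105 CPM in stress and non-stress (log2 fold change -0.85, edgeR adjusted p = 0.344). Drd2 did not stand for the list: 6 striatum markers had a positive and 4 a negative log2 fold change, with a median of 0.03. The 8 endothelial markers summed to 209 to 215 CPM in stress and 209 to 223 CPM in non-stress, and the 8 microglia markers to 489.6 to 519 CPM in stress and 505 to 511 CPM in non-stress. These sums overlapped between the groups, and the part of these cells in the Nr4a1 values was not tested. Nr4a2 marks the claustrum and layer 6b, and 8 markers of these cells summed to 257, 257 and 263 CPM in stress and 249, 217 and 227 CPM in non-stress, with 0 of them at 0 counts. About as much of this came from Synpr, a synaptic vesicle gene, as from the rest: it had 128, 131 and 134 CPM in stress and 132, 101 and 110 CPM in non-stress. The other 7 summed to 129, 126 and 130 CPM in stress and 116, 116 and 117 CPM in non-stress, with the 3 non-stress libraries level. At an unadjusted p under 0.05, 3 of the 8 markers were higher and 0 lower, against 5.8% and 6.27% of all genes tested. This list was chosen with earlier results of these libraries known, so its count is not independent evidence. EdgeR called 0, and DESeq2 called 1 of the 5 to which it gave an adjusted p, against 0.42% of all such genes called higher. This was Ccn2, a matricellular growth factor gene of layer 6b (log2 fold change 0.40, DESeq2 adjusted p = 0.000954, edgeR adjusted p = 0.155). The part of these cells in the Nr4a2 values was not tested. In the other marker lists, medians were 0.04 for excitatory neurons, 0.03 for inhibitory neurons, -0.03 for astrocytes and -0.06 for oligodendrocytes, and edgeR and limma-voom called 0 members. At an unadjusted p under 0.05 by edgeR the numbers were 2, 5, 2 and 0 of 8 each in that order, against 12.1% of all genes tested. The 2 excitatory markers were higher in stress and the 2 astrocyte markers lower. Of the 5 inhibitory markers, 2 were higher and 3 lower. DESeq2 called 1 of the 8 excitatory markers to which it gave an adjusted p (Neurod6, adjusted p = 0.0289). It also called 1 of 6 such inhibitory markers (Sst, adjusted p = 0.0250). Both were higher in stress, against 0.42% of all such genes called higher. At the unadjusted threshold, 1 striatum marker (Drd2, lower) and 1 microglia marker (Fcrls, log2 fold change 0.55) passed. Both tested pituitary markers (Gh and Pomc, higher) and 0 endothelial markers passed as well. EdgeR and limma-voom called 0 in these 4 lists. Of the 8 microglia markers, 4 had a positive and 4 a negative log2 fold change, with a median of 0.0033. DESeq2 gave no adjusted p to Drd2, Fcrls, Gh or Pomc.

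The genes with profiles closest to each member over the 6 libraries were ranked by the root mean square difference of centred log2 CPM. For Nr4a1 they were Shh, a secreted morphogen gene (0.05), Rasd2, a small GTPase gene enriched in striatum (0.08), the zinc finger gene Zfp335 (0.08), the ubiquitin ligase gene March9 (0.09) and the noncoding Gm33464 (0.09). Rasd2 had 38.8, 40.8 and 38.5 CPM in stress and 53.0, 61.6 and 51.1 CPM in non-stress. For Nr4a2 they were Sept10, Insyn2b, Prlr, Gpc6 and Rgs8, at 0.05 to 0.06. For Nr4a3 they were Yy1, Ptgfrn, Ep300, Zfp236 and Ankrd50, at 0.02 to 0.03. These genes were picked for their likeness, so their resemblance to the member in single libraries is fixed by the ranking. Between members, the difference was 0.47 between Nr4a1 and Nr4a2, 0.36 between Nr4a1 and Nr4a3 and 0.22 between Nr4a2 and Nr4a3. Of the 19227 genes tested, 15145 lay nearer to Nr4a1 than Nr4a2 did, 9703 nearer to Nr4a1 than Nr4a3 did and 6659 nearer to Nr4a2 than Nr4a3 did.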

How the data were processed

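Per the submitters' processing notes, reads were trimmed with Trimmomatic 0.38 and handled with HISAT2 and StringTie on GRCm38 (mm10). How counts were made and whether strand was used was not stated, so reads of overlapping genes cannot be separated. Per the labels' protocols, libraries were made from total RNA with a SMARTer low-input kit. The authors deposited whole-number counts per gene, which were used unchanged. edgeR 4.0.16 (R 4.3.3) was applied with filterByExpr, which kept 19227 of 45777 genes, TMM scaling (factors 0.996 to 1.003), and a two-sided quasi-likelihood test with Benjamini-Hochberg adjustment over all genes tested. Each fold change sets stress over non-stress and is slightly shrunk by edgeR. Its SE is the absolute unshrunk log2 coefficient divided by the square root of the F statistic. The prior count for log2 CPM was 2. CPM divide counts by the library total.

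The members and gene lists were chosen with earlier results of these data known. Genes named are the members, the 3 of smallest p in each list (of the 14 lists, the pathway lists and those of tissue next to the region), the 5 nearest profiles, tested neighbours within 100 kb, and Fos, Arc, Egr1 and the retinoid X receptors. One gene that this rule names is not reported here. Other genes named (Thra, Nr3c1, Esrrb, Slc17a7, Drd1, Maff, Smim41, Fcrls, Hspa5, Hsp90b1 and Sdf2l1) were chosen after their values were seen, as was the variant TGACGCA. RefSeq sequences and positions are of GRCm38.p6, and promoter windows were found for all 3 members. Transcript length and GC content come from GENCODE M21 for 17474 genes tested (90.9%). Alternatives were other size factors and filters, each library left out, a replicate block, DESeq2 1.42.0, limma-voom (limma 3.58.1) and removal of a trend on GC content and length (splines with 5 degrees of freedom). The edgeR step was tested on simulated data. Replicates differed by more than sampling noise (chi-square per degree of freedom 5.45 to 26.0).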

Additional observations from a re-analysis of the deposited data

How the results depend on the processing

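All 42 alternative log2 fold changes of the 3 members lay within 1 pooled within-group SD (0.130 for Nr4a1, 0.232 for Nr4a2 and 0.127 for Nr4a3, log2) of the reported ones. For the fits with 1 library left out this is close to fixed by arithmetic. Leaving out 1 of 3 libraries cannot move a group mean by more than that SD. Those fits are therefore read by their ranges. With 1 library left out, they ranged from -0.70 to -0.53 for Nr4a1, from 0.08 to 0.35 for Nr4a2 and from -0.14 to 0.02 for Nr4a3, whose sign changed without non-stress 3. The number of genes called by edgeR, 1, was 2 with a replicate block, 2 with limma-voom, 107 with DESeq2 and 3 with the composition trend removed, and ranged from 1 to 756 with 1 library left out, the highest without non-stress 1. The cause was not tested.

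Of list members, edgeR called 0 with all libraries. DESeq2 called 1 on the calcium and cyclic AMP route, 5 immediate early genes, 1 layer 6b marker, 1 excitatory and 1 inhibitory neuron marker, and the replicate block gave 1 pituitary marker. With 1 library left out, the counts ranged from 0 to 4 on the calcium and cyclic AMP route, 0 to 2 for immediate early genes, layer 6b, striatum and excitatory neuron markers, 0 to 3 for reported targets and pituitary markers, and 0 to 1 for inhibitory neuron, astrocyte and oligodendrocyte markers. Replicate numbers did not pair the libraries: the correlations of same-numbered libraries' deviations were 0.0160, -0.0298 and 0.0208, and under the replicate block Nr4a1 had a log2 fold change of -0.63, Nr4a2 0.19 and Nr4a3 -0.05. Nr4a3, with 242 to 291 counts per library, is the member whose counting error is largest.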

Other observations

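Genes other than the Nr4a family with at least 4 CRE cores in the 250 bases before the start numbered 38 among those tested. Their median log2 fold change was -0.05, against -0.01 over 13582 tested genes with a window, and at an unadjusted p under 0.05 by edgeR 1 was higher and 4 were lower in stress. The lower ones included Dusp8, a phosphatase of stress-activated kinases, with a log2 fold change of -0.20, and Tmem127 with one of -0.17, both named after their values were seen. Among genes with at least 2 cores, 947 in number, 4.44% were higher and 7.81% lower at that threshold, against 5.37% and 6.82% of all genes with a window.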
